A study of Mus musculus with 2 samples.

Results

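Runx1, Runx2 and Runx3 encode the DNA-binding subunits of core binding factor, and Cbfb encodes the partner that all 3 share. These 4 genes, chosen by name, are 4 of the 17751 genes in the raw transcript tables, and all 4 are described here in each of 20 clusters of splenic cells and in each library. CITE-seq, which reads single-cell transcripts together with antibody barcodes, was applied to spleen cells of female C57BL/6 mice aged 8 weeks. Pooled wildtype (WT) spleens gave 1 library and pooled Batf3-/- spleens gave the other, in each case after T and B cells had been depleted and live cells with MHCII and CD11c had been sorted. Batf3-/- animals carry the deletion in every cell, so a value within a cluster cannot be assigned to loss of Batf3 in those cells or elsewhere. According to the study, WT mice were obtained from a supplier, whereas Batf3-/- mice were purchased elsewhere and bred in house. Genotype and colony therefore cannot be told apart. With 1 library per genotype there was no replicate, and no test was made between genotypes or over cells.

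RUNX proteins bind DNA through the Runt domain, and CBFβ, the product of Cbfb, does not touch DNA itself but raises their affinity for it. RUNX1 is known for the emergence of hematopoietic stem cells, RUNX2 for bone formation by osteoblasts and, in blood cells, for the exit of plasmacytoid dendritic cells (pDCs) from bone marrow, and RUNX3 for cytotoxic T cells, NK cells, Langerhans cells and a subset of splenic conventional dendritic cells type 2 (cDC2). Conventional dendritic cells type 1 (cDC1), which depend on BATF3, present antigen of dead cells to CD8 T cells, whereas pDCs are known as a source of type I interferon.

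In GRCm38 and GENCODE M21, Runx1 (ENSMUSG00000022952.17) lies on the minus strand at chr16:92601466-92826149, Runx2 (ENSMUSG00000039153.16) on the minus strand at chr17:44495987-44814797, Runx3 (ENSMUSG00000070691.10) on the plus strand at chr4:135120652-135177990, and Cbfb (ENSMUSG00000031885.14) on the plus strand at chr8:105170674-105217989. The tables count UMIs near the 3′ end of a transcript, so they do not tell from which start a transcript came. RefSeq promoters of GRCm38.p6, 250 bases before to 50 after a start, were at hand for 6 starts: a distal and a proximal one of Runx1 and of Runx3, and 1 each of Runx2 and Cbfb. The RUNX motif ACCACA, searched on both strands (TGTGGT), is in 16.8% of all 32851 mouse promoters of that length. The distal Runx1 and Runx3 promoters and the Runx2 promoter each hold a pair of ACCACA copies on the sense strand with 2 bases between them, and such a pair, on either strand, is in 7 of the 32851 promoters (0.0213%), so that 3 of the 7 are those of the Runx genes themselves. The pair was noticed in these promoters and counted afterwards. The Runx2 promoter holds a further copy outside the pair. No other motif was searched, and ACCACA was not found on either strand in the proximal Runx1 and Runx3 promoters or in that of Cbfb. The 30 bases around the pair are shown 5′ to 3′ on the gene's strand, with the ACCACA copies in capitals, because the pair, the 2 bases within it and the 2 bases on either side are the same in the 3 Runx genes. Of the bases further out, Runx1 and Runx2 share most, while Runx3 differs from both at most of them. They lie at chr16:92826025-92826054, chr17:44814583-44814612 and chr4:135120503-135120532, and the first base of the pair is at position 28 and 23 from the start in Runx1 and Runx2 and at -134, upstream, in Runx3.
Runx1 distal promoter: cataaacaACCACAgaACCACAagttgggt
Runx2 promoter: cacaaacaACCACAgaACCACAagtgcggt
Runx3 distal promoter: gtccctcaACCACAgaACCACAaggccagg
A motif match is a description of the letters and shows no binding.

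The WT library held 12224 cells and 122530055 UMIs and the Batf3-/- library 12119 cells and 114517073 UMIs. A level is the sum of a gene's UMIs over a cluster, given per 1000000 of all UMIs there (CPM). Its 95% interval is the exact Poisson one and covers counting error only. Batf3, the targeted gene, was at 206 CPM in WT and 2.49 CPM in the Batf3-/- library. C4 (cDC1), C12 (mature cDC1), C17 and C18 held 2202, 394, 90 and 76 WT cells but only 31, 31, 1 and 2 Batf3-/- cells, so their pooled values are WT values in the main. Cluster names follow the study's annotation and stand by their markers for C14 (pDC list summed to 11474 CPM, against 55 to 1235 elsewhere), C15 (monocyte list 14717 CPM) and C4 (cDC1 list 4136 CPM, nearly all from WT cells). The 31 Batf3-/- cells of C4 summed to 2223 CPM on the cDC1 list and 208 CPM on the cDC2 list, against 4162 and 44.0 CPM in WT. C15 also reached 1063 CPM on the cDC1 list, with all 5 markers at 20 CPM or more (Irf8 at 595, Naaa at 256 and Xcr1 at 93.5 CPM). C14 reached 3204 CPM on the cDC1 list, of which 2974 CPM were Irf8, a factor that pDCs also carry. C6, named mitotic cDC1, summed to 3588 CPM on the cDC1 list in WT but to 1180 CPM in Batf3-/- cells (Xcr1 at 397 and 45.7 CPM), and to 34.3 and 199.6 CPM on the cDC2 list, so its Batf3-/- cells are not shown to be cDC1. Of their 1180 CPM, 941 CPM were Irf8. The mitotic cDC2a cluster C5, pooled, summed to 75.8 CPM on the cDC1 list and 358 CPM on the cDC2 list. The study calls the Batf3-/- cells of C6 cDC1-like and reports them as intermediate between WT C6 and C5 in transcripts and protein. C12 summed to only 644.7 CPM on the cDC1 list in WT, of which 454 CPM were Irf8, and to 85.9 CPM on the cDC2 list, against 4162 and 44.0 CPM in WT C4. In its 31 Batf3-/- cells Xcr1, Clec9a, Cadm1 and Naaa had 1 or 2 UMIs each, so the name mature cDC1 is that of the annotation. The study bases this name on further evidence. It reports XCR1, CD24 and CD8A protein on C12 much as on C4, and the highest levels of activation genes such as Ccr7. It also predicts a path from C6 through C4 to C12 in WT cells. C19 was named stem cells and C16 mixed in the annotation. In C19 the progenitor list (Cd34, Kit, Mpo, Myb) summed to only 54.5 CPM with Cd34 and Mpo at 0, so both clusters are called here by number. C9 and C17 had 13.6% and 13.7% mitochondrial UMIs and a median of 1478.5 and 2356 UMIs per cell, and 112 cells carried a barcode found in both libraries. Scrublet called 4.43% of WT and 2.01% of Batf3-/- cells as doublets, and these were kept except where stated. Antisense genes in the tables overlap Runx2 (Runx2os1, Runx2os2) and Runx3 (Gm16224), as does Supt3, which lies on the strand opposite to Runx2. The use of strand in counting is not given in the sources used here. Runx2os1 was at 2.25 CPM over all cells and 12.3 CPM in C14, and Supt3 was at 26.4 and 26.1 CPM.

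**Figure D1:**
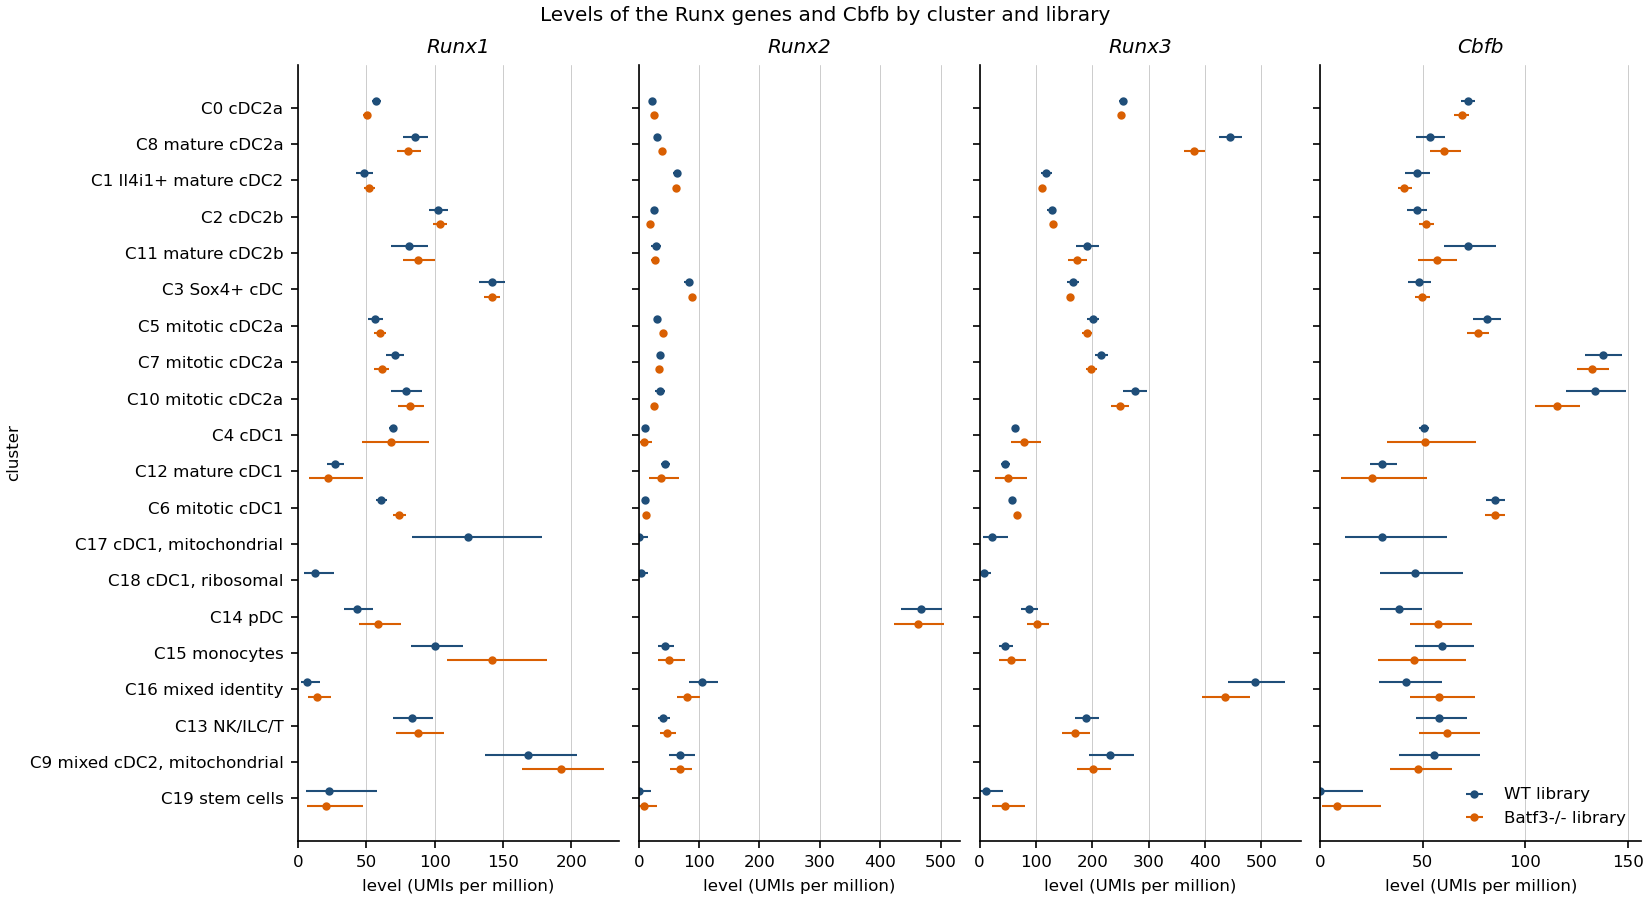
Levels of the 4 genes (CPM, horizontal axis) in each cluster (vertical axis), 1 point per library with its exact Poisson 95% interval, for clusters with at least 25 cells in that library. The Runx2 points of C14 sit at 467 and 463 CPM, far from all others, and the Runx3 points are furthest right in C16 and C8.

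Runx2 had its highest level in pDCs, which held 19.3% of all Runx2 UMIs in WT and 9.77% in the Batf3-/- library. In C14 it stood at 467 CPM in WT (95% interval 434 to 502) and 463 CPM in Batf3-/- cells (423 to 507). The next highest clusters, C16 at 91.5 CPM and C3 (Sox4+ cDC) at 86.9 CPM pooled over libraries, did not differ from each other beyond counting error, and C14 differed from both. Then followed C9 at 68.5 and C1 (Il4i1+ mature cDC2) at 61.9 CPM, which again were not apart. Among clusters with more than 2 Runx2 UMIs, C4 and C6 were at the other end. C4 had 9.51 CPM in WT (8.51 to 10.6) and 8.50 CPM, from 4 UMIs, in Batf3-/- cells (2.32 to 21.8). C6, the mitotic cDC1 cluster, had 10.2 CPM in WT (8.65 to 11.9) and 12.0 CPM in Batf3-/- cells (10.2 to 14.03). In C17, C18 and C19 there were 0, 2 and 2 Runx2 UMIs, and the 0 of C17 allows a level of up to 12.7 CPM (3 counts of its total). Both libraries thus placed pDCs far above and C4 and C6 below the cDC2a cells of C0, where Runx2 was at 21.1 and 25.6 CPM. The mature cDC1 of C12 stood above C0, at 43.8 CPM in WT (36.6 to 52.0) and 36.2 CPM, from 10 UMIs, in Batf3-/- cells (17.3 to 66.5). After each cell was thinned to 1000 UMIs, a Runx2 UMI was seen in 37.6% of C14 cells (31.7 to 43.9, exact Clopper-Pearson interval) and in 0.717% of C4 cells (0.410 to 1.16), and without thinning in 95.7% and 11.4%. Median depth was 8796 UMIs in C14 and 15382 in C4. No cell type here is known to lack the gene, and C4 stands in as the one with a low share.

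Runx3 was high in the cDC2a cells and higher still in 2 clusters. In C0 it was at 254 CPM in WT (247 to 261) and 252 CPM in Batf3-/- cells (245 to 259). In C8, the mature cDC2a cluster, it was at 445 CPM (425 to 466) and 380.5 CPM (362 to 399), and in C16 at 489.6 CPM (440.5 to 543) and 436 CPM (394 to 480.0). Pooled, C16 stood above C8 and C8 above C10 beyond counting error, while C10 (a mitotic cDC2a cluster) and C0 were not apart. The cDC2b cells of C2 held about the middle of the range, 128 CPM in WT (120.2 to 136) and 131 CPM in Batf3-/- cells (125 to 136), and C3 had 165 and 161 CPM. Low levels were found in cDC1, with 63.2 CPM in WT C4 and 57.9 CPM in WT C6, in the Batf3-/- cells of C6 with 66.2 CPM, in monocytes (C15) with 45.4 and 55.0 CPM, and in mature cDC1 (C12) with 45.8 CPM in WT. Pooled over libraries C4 and C6 were not apart, although in WT alone C6 was below C4 by a log2 ratio of -0.13 (-0.24 to -0.01), and the pooled ratio of -0.04 turned to 0.11 without doublets and 0.21 with G1 cells only. C15 and C12 were not apart either. With each cell thinned to 1000 UMIs, a Runx3 UMI was seen in 39.7% of C16 cells, 33.1% of C8 cells, 22.2% of C0 cells and 5.69% of C4 cells.

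In C16 the high Runx3 level went with very little Runx1. Only 18 Runx1 UMIs were counted in its 126 cells, 5 in WT and 13 in Batf3-/- cells, or 10.8 CPM (6.38 to 17.02) pooled at a median depth of 12964.5 UMIs per cell. The next lowest Runx1 level, in C18 (6 UMIs, 11.6 CPM), was not apart from it. C16 cells also carried Kit (233 CPM), Ccr7 (252 CPM) and Clec10a (258 CPM), while Cd3d was at 1 UMI and Ncr1 and Nkg7 at 0.

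Runx1 was highest in C9 and C3. C9, with few UMIs per cell and a high mitochondrial share, had 168 CPM in WT (137 to 204) and 192 CPM in Batf3-/- cells (164 to 224). C3 followed with 142 CPM in WT (133 to 151) and 142 CPM in Batf3-/- cells (136 to 148). C17, also of high mitochondrial share, had 124 CPM in WT (83.2 to 178) from 29 UMIs, and was not apart from C3 or from the monocytes of C15, which had 100.3 CPM in WT and 142 CPM in Batf3-/- cells. C9 and C17 also had only 5.99% and 4.82% ribosomal protein UMIs, against 26.4% in C3. The part of the mitochondrial and ribosomal shares and of low depth in the Runx1 level of C9 and C17 was not tested. With only the cells of at least 2000 UMIs kept, Runx1 was at 183 CPM in C9. Next came the cDC2b cells of C2, at 103 CPM in WT (95.8 to 109.7) and 104 CPM in Batf3-/- cells (98.5 to 108.8). The cDC2a cells of C0 had 57.3 and 50.2 CPM, below the cDC1 cells of C4 (69.5 CPM in WT). Between C2 and C0 Runx1 thus ran opposite to Runx3 in both libraries. Their mature counterparts did not show this for Runx1, since C11 (cDC2b) at 85.1 CPM and C8 (cDC2a) at 83.0 CPM pooled had overlapping intervals. Mature cDC1 of C12 had 27.0 CPM in WT (21.4 to 33.6).

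Cbfb was highest in the mitotic clusters. C7 had 138 CPM in WT (129 to 147) and 133 CPM in Batf3-/- cells (125 to 141), and C10 had 134 CPM (119.8 to 149) and 115 CPM (105 to 127). C6 and C5, also mitotic, followed at 85.3 and 78.5 CPM pooled. These 4 clusters headed the order, each apart from the next beyond counting error. C0 was at 72.0 and 68.9 CPM. From C0 (70.4 CPM pooled) down to C12 no pair of neighbours in the order differed. C12 had 29.9 CPM (24.2 to 36.5) and C19, from 2 UMIs, 4.74 CPM. The order did not follow cycling markers in C19, where Mki67, Top2a, Pcna and Mcm5 summed to 1336 CPM.

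The profiles of both libraries were compared over the clusters. Over the 18 clusters with at least 25 cells in each library, log2(CPM + 1) in WT and in Batf3-/- cells correlated with r = 0.96 for Runx1, 0.91 for Runx2, 0.96 for Runx3 and 0.93 for Cbfb, and Spearman's rho was 0.96, 0.93, 1.00 and 0.75, so that the order of clusters was shared least for Cbfb. This is a description over clusters that were built from both libraries together.

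The 3 Runx genes shared out their UMIs differently in each lineage. A 3′ UMI counts a molecule once, so no division by length was made. Runx3 made up 76.6% of Runx UMIs in C0, 77.9% in C8 and 81.8% in C16. In pDCs Runx2 made up 76.5% and Runx1 8.08%. In cDC1 (C4) Runx1 was at 48.8% and Runx3 at 44.5%, and C6 had nearly the same makeup with 48.0% and 44.2%. Among clusters with at least 100 Runx UMIs, monocytes had the highest Runx1 share, 54.5%. In mature cDC1 (C12) no gene dominated, with 22.9% for Runx1, 37.2% for Runx2 and 39.9% for Runx3.

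**Figure D2:**
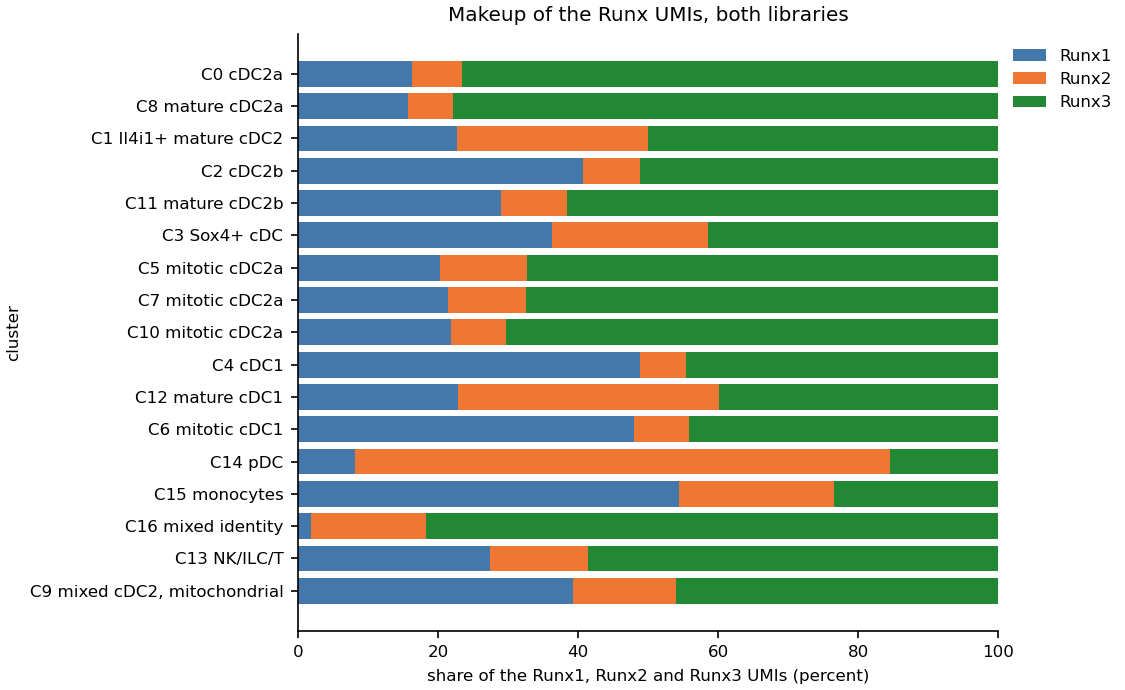
Share of Runx1, Runx2 and Runx3 (percent of their summed UMIs, horizontal axis) in each cluster with at least 100 Runx UMIs, both libraries pooled. Runx3 fills 76.6% of the bar of C0 and Runx2 76.5% of that of C14, while the bars of C4 and C6 are divided between Runx1 and Runx3.

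Ratios between clusters put sizes on these differences. A member was counted as past the fold where its log2 ratio of levels was at least 1 in size. Beside each count stands the share of genes past the same fold, out of all those that averaged 10 CPM or more over the pair and had 20 UMIs or more. The ratios carry exact 95% intervals from the split of the UMIs. The clusters were built from these transcripts, so the ratios describe them and are no independent evidence. Between cDC1 and cDC2a (C4 over C0) Runx3 was lower by a log2 ratio of -2.00 (-2.06 to -1.93) and Runx2 by -1.30 (-1.48 to -1.12), so 2 of 4 members were past the fold, as were 17% of all genes. Between cDC2b and cDC2a (C2 over C0) Runx1 was higher by 0.94 (0.86 to 1.02) and Runx3 lower by -0.96 (-1.02 to -0.91), so no member passed the fold there, where 5.90% of genes did. Runx1 did pass it in Batf3-/- cells alone (1.04) and with the median of all genes subtracted (1.09). In C3 over C0 Runx1 was higher by 1.40 (1.32 to 1.48) and Runx2 by 1.89 (1.78 to 2.00), 2 of 4 members against 7.33% of genes. In pDCs over C0 Runx2 was higher by 4.32 (4.19 to 4.44) and Runx3 lower by -1.43 (-1.62 to -1.25), with 19.7% of genes past the fold. In monocytes over C0 Runx3 was lower by -2.40 (-2.74 to -2.07) and Runx1 higher by 1.06 (0.83 to 1.28), with 16.7% of genes past the fold, but Runx1 was at 0.81 in WT cells alone and at 1.50 in Batf3-/- cells alone. Runx2 of monocytes was short of the fold at 0.96 and past it with cells weighted equally (1.20), without doublets (1.04) and in WT cells alone (1.05). Pooled over libraries, Cbfb stayed between -0.73 and -0.34 in C1, C2, C3, C4, C14 and C15 over C0, with all 6 intervals below 0. Within single libraries the interval included 0 for C15 in both, and for C4 and C14 in Batf3-/- cells.

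In the 4 comparisons of a mature with an immature cluster the pooled Runx2 level was higher in the mature one, whereas Runx3 was lower in some and higher in others. The clusters richest in mature DC transcripts (Ccr7, Il4i1, Fscn1 and Cd83 summed to 5206 CPM in C12 and 3718 CPM in C1) had the larger Runx2 differences. In C12 over C4 Runx2 was higher by 2.18 (1.89 to 2.47) and Runx1 lower by -1.39 (-1.72 to -1.08), and Cbfb and Runx3 were lower by -0.76 and -0.45. Here 36.8% of all genes passed the fold, and the Batf3-/- values rest on 31 cells a cluster. In C1 over C0 Runx2 was higher by 1.40 (1.28 to 1.53) and Runx3 lower by -1.16 (-1.23 to -1.10), with 17.3% of genes past the fold. The Runx3 difference was -0.97, short of the fold, once the median of all genes was subtracted. In the mature cDC2a cluster C8 Runx3 was higher than in C0 by 0.71 (0.65 to 0.76), Runx1 by 0.63 and Runx2 by 0.55. The mature cDC2b cluster C11 also had more Runx3 than C2, by 0.48 (0.36 to 0.59), and more Runx2, by 0.39 (0.09 to 0.68). This Runx2 ratio was 0.53 (0.13 to 0.91) in Batf3-/- cells and 0.16 (-0.31 to 0.61) in WT, where the interval included 0. Neither comparison had a member past the fold, against 6.75% and 3.14% of genes.

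Cbfb was higher in the mitotic clusters than in their non-mitotic counterparts. The log2 ratio was 0.94 in C7 over C0 (0.86 to 1.02), 0.80 in C10 over C0 (0.68 to 0.91) and 0.75 in C6 over C4 (0.66 to 0.84), but 0.16 in C5 over C0 (0.06 to 0.25). No member was past the fold in any of the 4, while 14.4%, 6.65%, 10.2% and 5.60% of genes were. With G1 cells only, the Cbfb ratio was -0.35 in C10 over C0, -0.14 in C5 over C0 and 0.03 in C6 over C4, and Runx2 in C5 over C0 went from 0.64 to 1.13, past the fold. Of the 202 G1 cells of C6, 189 were Batf3-/- cells, whereas C4 is nearly all WT, so phase and genotype cannot be told apart in that value of C6 over C4. Runx3 was lower in C7 and C5 than in C0, by -0.29 and -0.38, and in C10 was not apart from C0 pooled (0.04, -0.04 to 0.11) or in Batf3-/- cells (-0.02, -0.12 to 0.08), but slightly higher in WT (0.12, 0.0029 to 0.24).

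**Figure D3:**
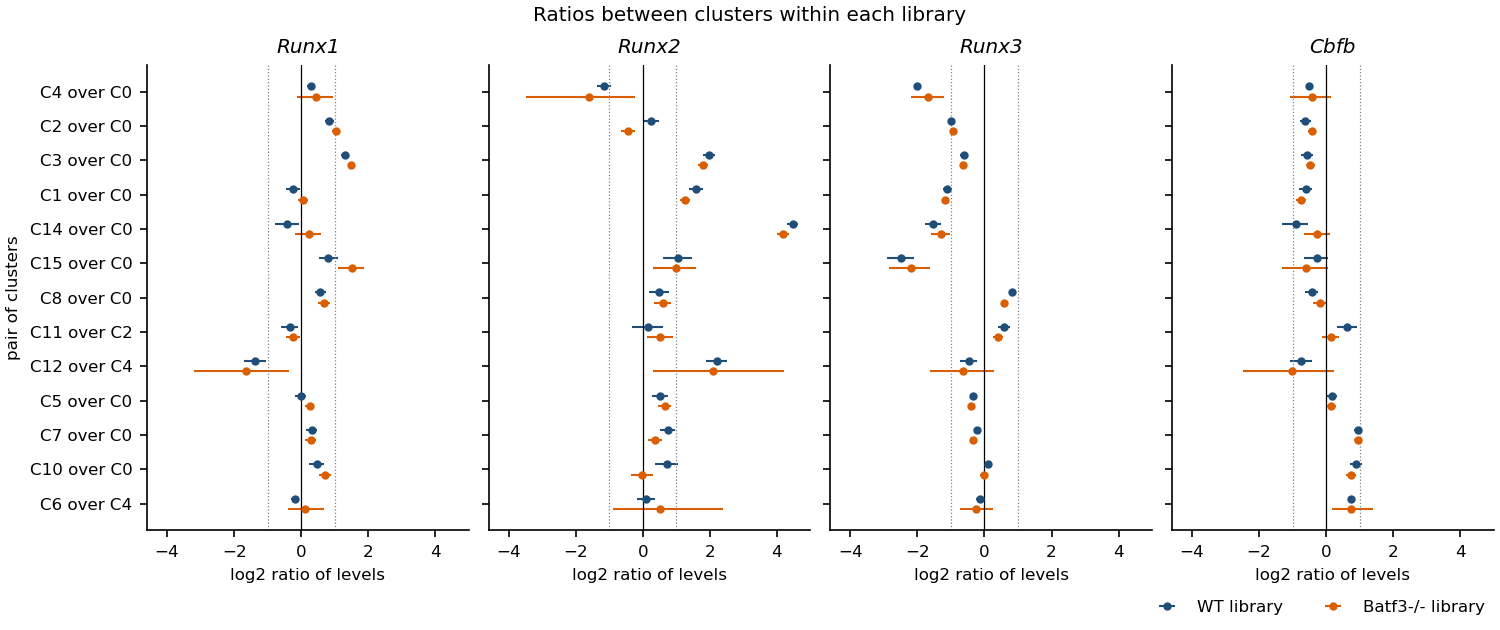
Log2 ratio of levels between pairs of clusters (horizontal axis) for the 4 genes, 1 point per library with its exact 95% interval, with dotted lines at -1 and 1. Both libraries place Runx2 of C14 over C0 beyond 4 and Runx3 of C4 over C0 below -1, and the wide intervals of C4 and C12 belong to the 31 Batf3-/- cells in each.

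Within clusters, Cbfb differed between the deposited cell cycle phases in C6, while no difference was seen in C0. In C1, C2, C3 and C5 the intervals of all Cbfb ratios between phases included 0 as well. In C6 its level was 50.7 CPM in G1 cells (42.8 to 59.7), 80.1 CPM in S cells (75.8 to 84.6) and 103 CPM in G2M cells (97.2 to 109.9). These G1 cells are the mostly Batf3-/- ones named above. Within Batf3-/- cells alone the log2 ratio was 0.77 (0.50 to 1.05) for S over G1 cells and 0.97 (0.69 to 1.26) for G2M over G1 cells. In S and G2M cells Cbfb was at 73.8 and 104 CPM in WT, a log2 ratio of 0.50 (0.34 to 0.66), and at 88.6 and 102 CPM in Batf3-/- cells, a ratio of 0.20 (0.02 to 0.39). In C0 the 3 phases had 70.3, 72.2 and 72.6 CPM, within each other's intervals. The G2M value of C0 rests on 32 UMIs, and its ratio to S cells had a wide interval (0.01, -0.58 to 0.55). Runx1 of C3 went the other way, with 147 CPM in G1 cells and 82.8 CPM in S cells (70.1 to 97.3), and this held in WT (149 and 78.2 CPM) and in Batf3-/- cells (146 and 85.4 CPM). Runx2 of C3 was also lower in S cells, 63.9 against 88.9 CPM pooled, although the interval in WT alone included 0 (-0.38, -0.87 to 0.08), and Runx3 was not (173 against 162 CPM). Runx1 was lower in S than in G1 cells in C6 too, by -0.54 (-0.73 to -0.34) pooled and -0.39 (-0.62 to -0.17) in Batf3-/- cells. In G2M over G1 cells, pooled Runx1 was higher in C0 by 0.72 (0.23 to 1.18) and in C2 by 0.74 (0.31 to 1.14), from 39 and 52 G2M UMIs. Phases were called from transcripts by the authors, and the 195 S cells of C3 are few beside its 2033 G1 cells.

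The deposited SingleR labels, a cell type for each cell, divided C2 and C13. In C2, cells labelled monocytes had more Runx1 than those labelled DC, 119.6 CPM (112 to 128) against 95.2 CPM (90.4 to 100.1), and less Runx3, 112 against 138 CPM, in both libraries. In C13, Runx3 stood at 241 CPM in cells labelled NK cells (193 to 296) and 230.2 CPM in those labelled ILC (194 to 272). Cells labelled T cells had 94.98 CPM (64.1 to 136). Runx2 had 65.3 CPM in the ILC-labelled cells (46.7 to 88.9), 6.33 CPM in the T cell-labelled cells (0.77 to 22.9, from 2 UMIs) and 8.38 CPM in the NKT-labelled cells (0.21 to 46.7, from 1 UMI). NK and T cell markers summed to 2187 and 780 CPM in C13. Its 79 cells labelled DC had Runx3 at 166 CPM (142 to 194). Runx3 of the whole cluster, 181 CPM, was below the 253 CPM of cDC2a (C0, pooled). The intervals of the NK-labelled and ILC-labelled cells included that level of C0, so these cells are not shown to be below cDC2a.

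C3 was looked at further because it combined high Runx1 with high Runx2. After thinning to 1000 UMIs, 206 of its cells had a UMI of Siglech, a pDC surface lectin, and 2039 had none. Runx2 was at 147 CPM with Siglech and 74.2 CPM without in WT, and at 151 and 83.0 CPM in Batf3-/- cells, with no overlap of intervals in either library. The pooled log2 ratio was 0.90 (0.71 to 1.08). Pooled, Runx1 differed by 0.29 (0.12 to 0.46), Runx3 by -0.11 (-0.29 to 0.06) and Cbfb by -0.13 (-0.46 to 0.19). For Runx1 the ratio was 0.34 (0.13 to 0.54) in Batf3-/- cells and 0.21 (-0.08 to 0.50) in WT, where the interval included 0. The Siglech-bearing C3 cells stood far below the 466 CPM of pDCs. The 5 pDC markers stood in other proportions in C3 than in C14: Tcf4 was at 527 against 1420.0 CPM, Bst2 at 582 against 3874 CPM, Siglech at 110.3 against 2015 CPM, Pacsin1 at 4.73 against 196 CPM, and Ly6d at 10.4 against 3969 CPM. Of the 206 Siglech-bearing cells 0 were called as doublets, and without the 25 called among the others the Runx2 ratio was 0.88 (0.69 to 1.06). The part of pDC RNA in the Runx2 level of C3 was not tested. At 5000 UMIs a cell, 13.7% of C3 cells had both a Runx1 and a Runx2 UMI, beside a product of the single shares of 10.3%. The other pairs were below their products, with 19.7% beside 21.1% for Runx1 and Runx3 and 12.0% beside 13.6% for Runx2 and Runx3. UMIs of 2 or more Runx genes were seen in 33.5% of C3 cells, against 38.6% in C14 and 33.2% in C8.

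**Figure D4:**
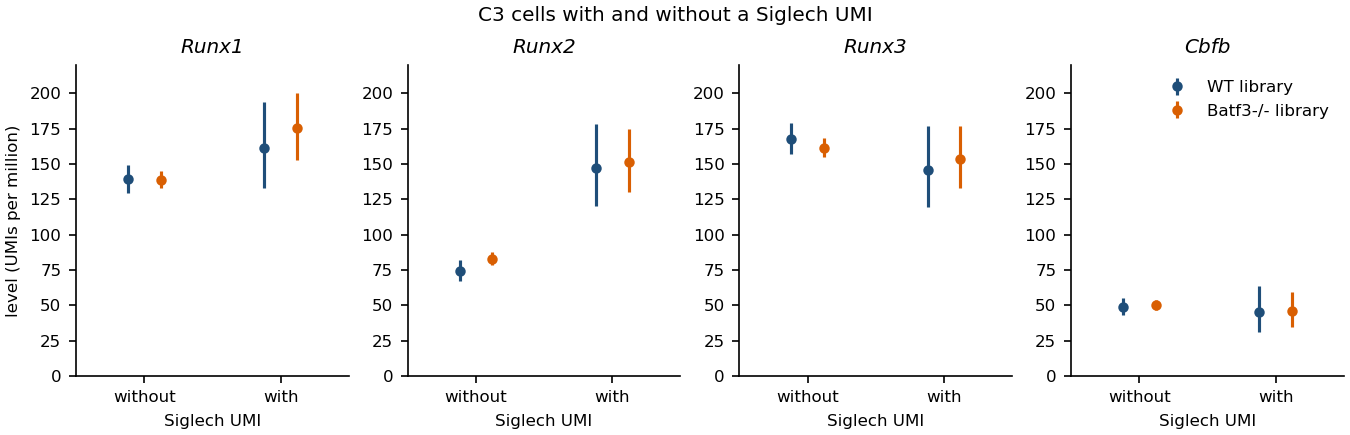
Levels of the 4 genes (CPM, vertical axis) in C3 cells without and with a Siglech UMI after thinning (horizontal axis), 1 point per library with its exact Poisson 95% interval. Runx2 moves from 74.2 and 83.0 CPM to 147 and 151 CPM, and the intervals of Runx3 and Cbfb overlap.

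Between genotypes the members were compared within each cluster. Of 72 pairs of a member and a cluster, 47 were past a mean of 50 CPM and 20 UMIs, and 1 of these 47 reached a log2 ratio of 0.5, against 8.27% of gene and cluster pairs over all genes. That one was Runx1 in monocytes, at 100.3 CPM in WT and 142 CPM in Batf3-/- cells (log2 ratio 0.50, 0.03 to 0.96), from 145 and 52 cells. The part of the cDC1 transcripts of C15, given above, in this ratio was not tested. Cbfb in pDCs differed by slightly more, 0.58 (0.04 to 1.12), from 38.5 and 57.6 CPM, but its mean was under 50 CPM, so it is not among the 47. Of the 67 pairs with at least 20 UMIs at any level, 15 had a counting interval without 0, against 16.1% of such pairs over all genes. These were 4 of 16 for Runx1, 5 of 17 for Runx2, 4 of 17 for Runx3 and 2 of 17 for Cbfb. Such an interval grows narrow with the count and does not cover differences between pools of mice or between libraries. The level filter leaves out Runx2 in most clusters. Runx2 was higher in Batf3-/- cells of C5 by 0.41 (0.17 to 0.65), C8 by 0.40 (0.06 to 0.75) and C0 by 0.28 (0.10 to 0.46), and lower in C2 by -0.42 (-0.68 to -0.15) and C10 by -0.44 (-0.88 to -0.0041). Its differences thus had no common direction. Runx3 in C8 was lower by -0.23 (-0.32 to -0.13) and Runx1 in C6 higher by 0.28 (0.15 to 0.41). In C6, with 797 WT and 727 Batf3-/- cells, Runx1 was at 60.9 CPM in WT and 74.2 CPM in Batf3-/- cells and Runx3 at 57.9 and 66.2 CPM, while Cbfb was at 85.3 CPM in each. The cDC1 markers were lower and the cDC2 markers higher in the Batf3-/- cells of C6, as given above, 11.3% of well counted genes passed a log2 ratio of 0.5 there (1.27% in C0), and the part of this difference in the Runx values was not tested. The Batf3-/- cells of C6 in G1 had 94.1 CPM of Runx1. Among S cells alone Runx1 was at 60.6 CPM in WT and 71.6 CPM in Batf3-/- cells, a log2 ratio of 0.24 (0.06 to 0.42). Among G2M cells it was at 59.9 and 65.3 CPM, a ratio of 0.12 (-0.11 to 0.36). Cbfb, level over the whole cluster, was higher among Batf3-/- S cells by 0.26 (0.11 to 0.42) and not apart among G2M cells (-0.04, -0.22 to 0.15).

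**Figure D5:**
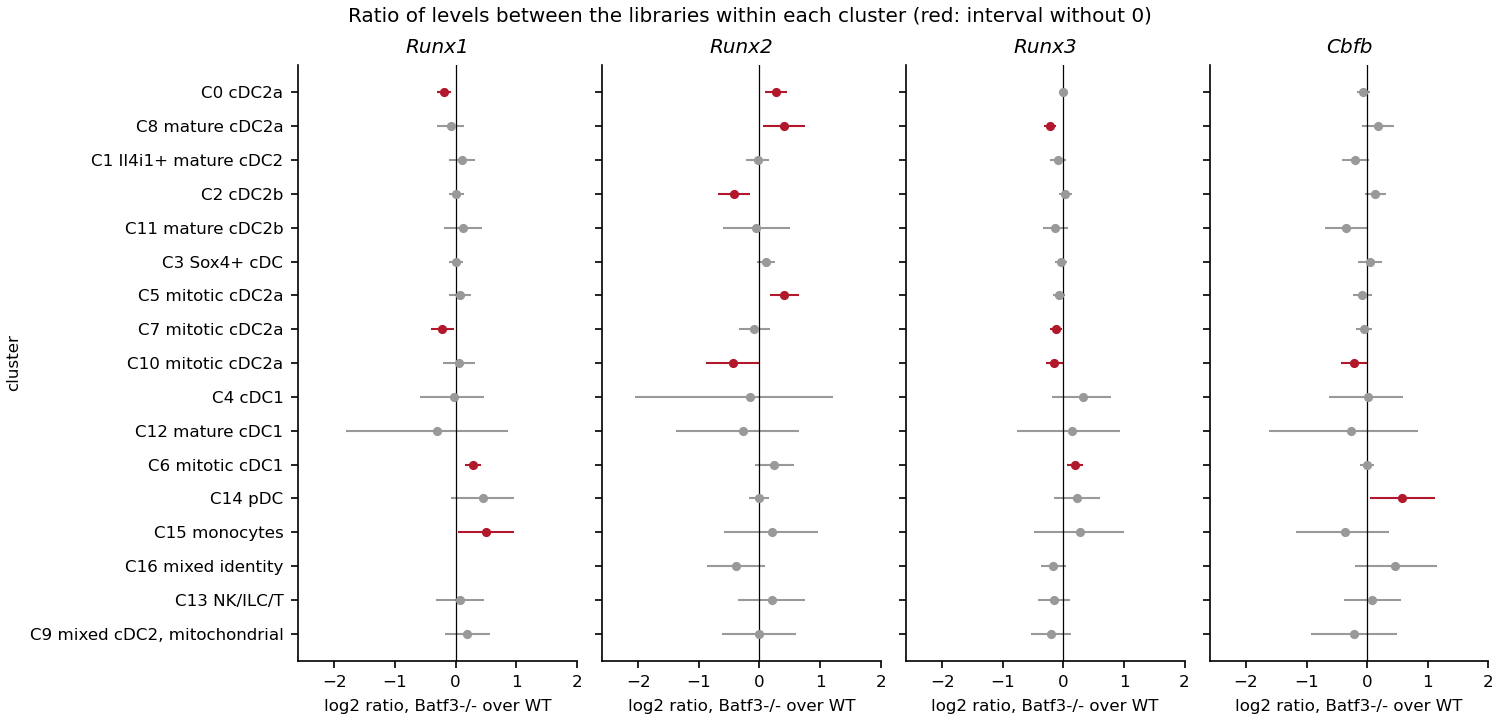
Log2 ratio of levels, Batf3-/- over WT (horizontal axis), in clusters with at least 25 cells and at least 20 UMIs of the gene (vertical axis), with exact 95% intervals for counting error, in red where the interval excludes 0. Red points lie on both sides of 0 for each gene, and Runx1 in C15 is the one at 0.5 among those with a mean of at least 50 CPM.

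For Runx1 and Runx2, most of the difference between whole libraries followed the cluster shares. Runx2 was at 30.8 CPM in WT and 43.2 CPM in the Batf3-/- library, a log2 ratio of 0.49 (0.43 to 0.55). If each cluster had kept its WT level and only the share of UMIs in each cluster had changed, the Batf3-/- library would have been at 41.6 CPM, a log2 ratio of 0.44 over WT, which leaves 0.05. C3 supplied 13.5% of Runx2 UMIs in WT and 27.2% in the Batf3-/- library, C1 8.30% and 17.1%, and C4, with 27.9% of all WT UMIs, 8.62% and 0.0809%. For Runx3 the library ratio was 0.24 (147.7 and 175 CPM) and the cluster shares alone gave more, 0.30. For Runx1 it was 0.16 (70.5 and 78.8 CPM) and 0.14, and for Cbfb 0.04 (-0.01 to 0.08) and 0.08. The cell numbers of these clusters moved more than their depth per cell. C4 went from 2202 to 31 cells at a median of 15398.5 and 14220 UMIs, C3 from 704 to 1541 cells at 8589.5 and 9444 UMIs, and C1 from 721 to 1845 cells at 6176 and 6753 UMIs.

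Genes around the Runx proteins were counted in 3 lists, of binding partners and co-regulators (all 27 genes in the files), of transcription factors that act with RUNX in blood cells (15 of 15) and of known RUNX targets (18 of 20). A gene that is low in C0 enters a count only where the other cluster lifts it past the level filter, so the counts describe the lists and are read beside the share of all genes past the fold. None of the 18 to 19 well counted partners passed the fold in C4, C2 or C14 over C0 (17%, 5.90% and 19.7% of all genes), and 1 each did in C3 and C1 (7.33% and 17.3%), namely the corepressor gene Tle1 (24.8 CPM in C3 and 9.80 CPM in C0) and the ubiquitin ligase gene Smurf1. In C12 over C4 the co-repressor genes Cbfa2t3 and Tle3, the methyltransferase gene Kmt2a and Smurf1 were higher and Prmt1, a methyltransferase gene, lower, with Tle3 at 155 and 30.5 CPM, beside 36.8% of all genes past the fold. In monocytes over C0 4 of 20 were higher, among them Tle1, Tle4 and Smurf2, beside 16.7% of all genes. Of the mitotic pairs, C7 over C0 had 2 of 20 higher, Prmt1 and the histone methyltransferase gene Suv39h1, beside 14.4% of all genes. Suv39h1 was the 1 of 18 higher in C10 over C0 (6.65% of all genes) and the 1 of 19 higher in C6 over C4 (10.2%). The list medians in C12 and monocytes were 0.13 and 0.17, beside -0.21 and 0.01 over all genes.

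Among the factors that act with RUNX, 4 of 8 were lower in C4 over C0 (17% of all genes past the fold), Cebpa, Lmo2, Ikzf1 and Bcl11a, with a list median of -0.82 beside -0.21 over all genes, and Bcl11a, a pDC and lymphoid factor, at 133 against 352 CPM. In C1 over C0 (17.3% of all genes), 4 of 8 were lower, Fli1, Lyl1, Lmo2 and Bcl11a (median -1.08 beside -0.19). In pDCs over C0 (19.7% of all genes), 2 of 10 were higher, Ets1 at 81.1 against 8.81 CPM and Myb at 55.7 against 0.893 CPM, and Spi1, which encodes the myeloid factor PU.1, was lower at 142 against 508 CPM. In C3 over C0 (7.33% of all genes), 2 of 9 were higher, Myb, a progenitor factor, with 23.2 CPM and Cebpa at 35.6 against 14.8 CPM. Myb was also higher in C12 than in C4, at 94.9 against 3.93 CPM, while Fli1 and Bcl11a were lower there, 3 of 7 in all beside 36.8% of all genes. In monocytes over C0 (16.7%), Ets1 and Lyl1 were higher and Bcl11a lower, 3 of 9. C2 over C0 (5.90% of all genes) had 2 of 8 higher, Cebpa and Lyl1.

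Known targets differed between clusters in both directions. In pDCs over C0, 5 of 9 were higher and 2 lower, beside 19.7% of all genes past the fold. Those higher included Cd4 (240.5 against 78.1 CPM), Cd8a, the integrin gene Itgal and the chemokine receptor gene Ccr2 (85.7 against 2.11 CPM), and Spi1 and Zbtb7b, the helper T cell factor, were lower. Cd4 and Cd8a are silenced and activated by RUNX proteins in T cells. Past the fold over C0, Cd8a was higher and Cd4 lower in C4, C3, C1, C5, C7 and C15. In C4 over C0 Cd8a was at 443 against 4.58 CPM and Cd4 at 8.03 against 78.1 CPM. In C8 only Cd8a was counted past the fold, in C10 only Cd4 and in C2 neither. Among the clusters compared with C0, both were higher only in pDCs. Of the targets, 3 of 9 were higher and 2 lower in C4 over C0 (17% of all genes past the fold), 4 of 9 higher in C2 (5.90%), 4 higher and 2 lower of 9 in C3 (7.33%), and 7 higher and 1 lower of 11 in C15 (16.7%). Ccr2 was higher than in C0 in C4 (48.5 CPM), C2 (157 CPM), C3 (153 CPM), C14 and C15 (268 CPM), and Csf1r, the receptor of macrophage colony-stimulating factor, was higher in C2 (155 against 21.7 CPM), C3 (64.3 CPM) and C15 (446 CPM). In C15 Cd4 was lower than in C0, and the granule genes Elane and Mpo had 293 and 67 UMIs against 0 and 1 in C0. C8 over C0 (6.75% of all genes past the fold) had 2 of 8 higher, Cd8a and the cell cycle inhibitor gene Cdkn1a, and C12 over C4 had Cdkn1a higher (231 against 16.2 CPM) and Itgae, Itgal and Ccr2 lower, 4 of 9 beside 36.8% of all genes.

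For each member the 5 genes with the most similar profile were taken by Pearson's r of log2(CPM + 1) over the 20 clusters, among 8650 genes. They were Pacs2, Il6ra, Gm26740, Ccdc9 and Jarid2 for Runx1 (r from 0.86 to 0.91), Klhl9, Sdf4, Dirc2, Lrp8 and Ralgps1 for Runx2 (0.89 to 0.91), Gm15261, Siglecg, Cnot6l, Hccs and Bex6 for Runx3 (0.91 to 0.92), and Ints14, Tpm3, Itgb7, Rcn2 and Rgs19 for Cbfb (0.90 to 0.94). All 5 genes near Runx2 peaked in C14, as Runx2 did. Several near Runx1 peaked elsewhere, with Pacs2, Gm26740 and Jarid2 highest in C17 and Il6ra in C15. The points share their libraries, and 0 to 3 of the 5 genes stayed in the list under another measure, library or set of clusters.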

How the data were processed

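The authors aligned and counted the reads with Cell Ranger and deposited raw UMI counts per gene and cell for each library, beside a table of metadata with clusters, SingleR labels and cell cycle phases and with the mitochondrial share of each cell as a fraction. The submitters' processing notes also name bcl2fastq 2.2.0 and Seurat 3.0.5. According to the study, Cell Ranger also joined both libraries in 1 matrix and corrected for unequal sequencing depth. The part of this step in the library totals and depths per cell given here was not tested. Cells in the deposited metadata were kept without a further filter (12224 WT, 12119 Batf3-/-). UMI counts were summed per cluster and library with Python 3.11.15, numpy 2.4.6, scipy 1.17.1 and pandas 2.3.3, and doublets were called with Scrublet in scanpy 1.11.5 at an expected rate of 0.1. Antibody tables were not used. Intervals were exact (Poisson, binomial split, Clopper-Pearson), and they and the thinning were tested on simulated data. Pooled spleens make 1 library per genotype, so no p-value is given. UMI counts limit the precision as each interval shows, and PCR duplicates are removed by the UMI. The members and gene lists were chosen with earlier results of these data known. Genes named are the 4 members, the 5 most like each, and members of the lists past the fold with at least 20 UMIs. Also named are Batf3, genes that overlap a member, and genes of marker lists for cell types and states. Kit, Ccr7 and Clec10a in C16 were picked from the marker lists after their values were seen. Some genes of the lists are not reported here. Il3 and Bglap, members of the lists, were not analysed here, and Tle5, another symbol of the partner gene Aes, was counted once, as Aes. Alternatives were another total, cells weighted equally, doublets or shallow cells left out, G1 cells only, each library alone, subtraction of the median of all genes, other thinning depths and no CPM filter.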

Additional observations from a re-analysis of the deposited data

Results flagged for a closer look

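For each gene the log2 ratio of Batf3-/- over WT cells had opposite signs in 2 clusters, each with an interval that excluded 0. The ratio of Runx1 in C15 (monocytes) less that in C7 (mitotic cDC2a) was 0.72. For Runx2, C5 less C10, both mitotic cDC2a clusters, gave 0.85. The Runx3 ratio in C6 (named mitotic cDC1, although its Batf3-/- cells are not shown to be cDC1) less that in C8 (mature cDC2a) was 0.42, and the Cbfb ratio in C14 (pDCs) less that in C10 was 0.80. These clusters were picked because their ratios were furthest apart, and with 1 library per genotype none of these differences was tested.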

How the results depend on the processing

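None of the 52 cluster and 70 genotype ratios that was past 1 in size changed sign under any alternative. Among those short of it, 11 cluster ratios did so in 18 alternatives, and 19 genotype ratios in 32. With G1 cells only, Cbfb turned from 0.80 to -0.35 in C10 over C0 and from 0.16 to -0.14 in C5 over C0, Runx1 from 0.12 to -0.28 in C5 over C0 and from -0.05 to 0.45 in C6 over C4, and Runx2 from 0.22 to -0.36 in C6 over C4, where the G1 cells of C6 are 189 of 202 Batf3-/- and C4 nearly all WT, so phase and genotype changed together. In WT alone Runx2 in C2 over C0 turned from -0.16 to 0.24, and in Batf3-/- cells alone Runx1 in C14 over C0 from -0.13 to 0.22. Runx3 in C6 over C4 (-0.04) was at 0.11 without doublets and 0.21 with G1 cells only. For C4 over C0, Runx2 (log2 -1.30) was at -1.69 without doublets, -1.59 in Batf3-/- cells alone and -1.09 with the median of all genes subtracted, and Runx3 (-2.00) was at -2.07 with cells weighted equally, -2.21 without doublets, -1.68 in Batf3-/- cells and -1.79 with the median subtracted. For C3 over C0, Runx1 (1.40) was at 1.27 with cells weighted equally, 1.31 in WT and 1.50 in Batf3-/- cells, and Runx2 (1.89) at 1.78 with cells weighted equally. For C1 over C0, Runx2 (1.40) was at 1.57 in WT, 1.26 in Batf3-/- cells and 1.60 with the median subtracted, and Runx3 (-1.16) at -1.24 with a total free of mitochondrial and ribosomal protein genes, -1.25 with cells weighted equally and -0.97, short of the fold, with the median subtracted. Runx2 in C14 over C0 (4.32) was at 4.47 without doublets, 4.47 in WT and 4.18 in Batf3-/- cells. Runx1 in C15 over C0 (1.06) was at 0.81 in WT and 0.93 with the total free of mitochondrial and ribosomal protein genes, both short of the fold, and 1.50 in Batf3-/- cells, and Runx2 in C12 over C4 (2.18) at 2.58 without doublets. Cbfb in C12 over C4 (-0.76) was past the fold in Batf3-/- cells alone, at -1.01. The causes were not tested. Of 70 ratios between genotypes, 69 stayed within their intervals without doublets, and all did under every other alternative that gave a value. With the total free of mitochondrial and ribosomal protein genes, 67 of 80 levels lay above their intervals. Without the CPM filter, 24 of 28 background values were higher by more than their limit. Leaving out the doublets of C3 in the Siglech split, leaving out the cells with shared barcodes and setting WT levels at the Batf3-/- cluster shares were chosen after seeing the data, and the second moved none of 80 levels or 52 cluster ratios out of its interval. No paired analysis was possible because each genotype is 1 library.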

Other observations

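At 5000 UMIs a cell, 51.3% of cDC1 cells (C4) and 51.9% of C6 cells had no UMI of any Runx gene, against 21.9% of cDC2a cells (C0), 21.0% of C3 cells and 10.0% of mature cDC2a cells (C8). A cell with no UMI at this depth is not shown to lack the transcripts.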
